A study of Mus musculus with 56 samples.

Results

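The loci of 39 interferon-stimulated genes were examined among 18692 genes that had an accessible peak within 10 kb of their transcription start site (TSS). A locus was the sum of the counts of all peaks centred within 10 kb of the TSS, and the genes were taken from a list of names by a rule that uses no measured value, although the list was drawn up with earlier results of these data known. The assay was bulk ATAC-seq, which tags open chromatin with a transposase, and each of the 56 libraries was made from 1000 cells. All 28 clones descend from single mouse granulocyte-monocyte progenitor (GMP) cells of a Tet2 fl/fl mouse, immortalised with Hoxb8 fused to an oestrogen receptor domain. They were grown with 0.5 µM beta-estradiol, and such clones differentiate further when it is withdrawn. Every clone was split into a Tet2 knockout (KO) line, given Cre, and a control line, given GFP, in both cases by integrase-deficient lentivirus at a multiplicity of 200, so the control lines carry the floxed allele and the viral exposure as well. The groups were 24 SCF control lines and 24 SCF KO lines (stem cell factor, 100 ng/ml), and 4 GM-CSF control lines and 4 GM-CSF KO lines (10 ng/ml). For clones 20, 21 and 22 the treatment label (GM-CSF) was followed, although SCF stands in their titles. Each line is 1 clone, grown without its normal tissue, and no clone was kept in both cytokines, so cytokine and clone of origin cannot be told apart. The paper describes the GM-CSF clones as held at a later stage of differentiation than the SCF clones. Stage of differentiation therefore cannot be told apart from cytokine either.

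Type I interferons bind a receptor at the cell surface that activates the kinases Jak1 and Tyk2. A complex that contains Stat2 and Irf9 then binds a short DNA element, the interferon-stimulated response element (ISRE), in front of a set of antiviral genes. Cells keep some of these genes accessible, and transcribed at a low level, without interferon. An accessible locus is not a measure of transcription.

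Library totals ran from 39379 to 1079233 counts, with a median of 389432.5. The GM-CSF clones 19 and 20 were shallow, with 114885 and 88234 counts in the control lines and 40876 and 39379 in the KO lines, so that 1 count there is a large value in counts scaled to a common library total (CPM). Markers fixed for GMP had accessibility per peak between the 54.9th and 84.0th percentile of all loci (8 genes). The summed GMP marker level was 491 to 791 CPM in SCF controls and 340.0 to 514 CPM in GM-CSF controls, against 296 to 557 and 364 to 442 CPM for the macrophage markers, 127 to 222 and 160 to 235 CPM for the lymphoid markers, 9.77 to 101 and 22.7 to 52.2 CPM for the plasmacytoid dendritic cell markers, and 137 to 276 and 193 to 247 CPM for the erythroid markers; their part in the results below was not tested. No peak lies on exon 3 of Tet2, so the deletion could not be checked from these counts.

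The element itself was present in the DNA in front of several members. The core searched for was GAAA, any 2 bases, GAAA, on both strands. It was found in 33.9% of the 56 member peaks within 1 kb of the TSS (19 peaks) and in 14.4% of all 263 peaks of the member loci, against 3.18% of all promoter peaks and 4.23% of all 297361 peaks. The gamma-activated site core TTCNNNGAA was found in 10.7% of member peaks within 1 kb of the TSS and in 6.94% of all promoter peaks. In the 200 bases before the TSS, 13 members held an ISRE match. The lines below show 6 of them that recur in the results, read from GRCm38 (mm10) on the strand of the gene, with each match in capitals; their positions are chr4:156200860-156200921 for Isg15, chr5:120749900-120749949 for Oas2, chr8:71537572-71537627 for Bst2, chr2:173218944-173219047 for Zbp1, chr3:142559974-142560025 for Gbp3 and chr2:122147523-122147572 for B2m.
Isg15: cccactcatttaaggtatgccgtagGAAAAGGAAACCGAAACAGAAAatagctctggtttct
Oas2: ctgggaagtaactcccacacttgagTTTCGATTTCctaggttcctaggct
Bst2: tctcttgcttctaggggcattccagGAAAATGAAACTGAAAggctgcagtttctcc
Zbp1: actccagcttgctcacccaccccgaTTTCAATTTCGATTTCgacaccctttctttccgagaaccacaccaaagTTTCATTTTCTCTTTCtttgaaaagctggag
Gbp3: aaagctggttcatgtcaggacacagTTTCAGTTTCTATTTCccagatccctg
B2m: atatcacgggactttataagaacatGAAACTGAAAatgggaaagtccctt
A match describes the letters only. Isg15 held 3 overlapping matches, Zbp1 held 4 in overlapping pairs, Bst2 and Gbp3 held 2 that overlap, and Oas2 and B2m held 1 each. No counted peak of the Isg15 or Gbp3 locus holds a whole match, so their matches are not among the peak shares above.

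Accessibility at the member loci was modest and uneven. All peaks are 301 bp, so levels were compared between genes as CPM per peak. The members had a median of 3.44 CPM per peak, at a median percentile of 41.2, against 4.76 CPM per peak over all loci, and 13 of 39 members stood at or above the 50th percentile. The highest were Ifi35 (10.7 CPM per peak), an interferon-induced leucine zipper protein, Bst2 (10.6), which tethers budding virus, and Cmpk2 (9.53), a mitochondrial nucleotide kinase. The lowest were Ifi44 (1.09), Mx1 (1.24), a GTPase, and Gbp2 (1.36), a guanylate binding protein. Counts over all libraries ran from 73 for Oas1a to 2654 for Ifi35.

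**Figure D1:**
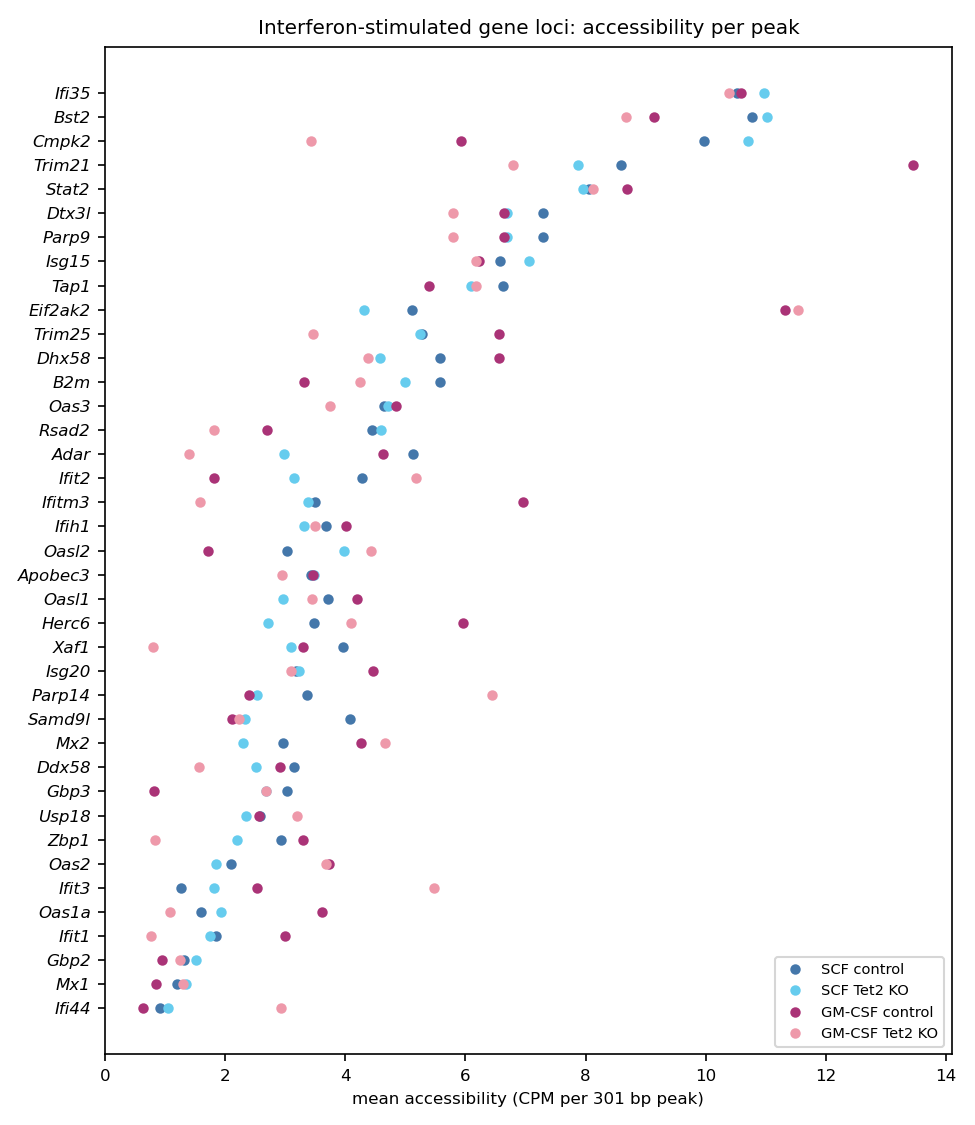
Mean accessibility of the 39 member loci, in CPM per 301 bp peak, in each of the 4 groups (points); SCF groups hold 24 libraries and GM-CSF groups 4. Ifi35 and Bst2 lie at the top and Ifi44, Mx1 and Gbp2 at the bottom, and Eif2ak2 shows both GM-CSF points apart from both SCF points.

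Several loci are not independent of their neighbours. Of the 39 members, 18 share at least 1 peak with another gene. Dtx3l and Parp9, a ubiquitin ligase and its partner that face each other from one promoter region, hold the same 7 peaks and have identical values throughout. Rsad2 and Cmpk2 also share peaks. Tap1, the peptide transporter of antigen presentation, shares peaks with Psmb9, Psmb8 and Tap2, and Ifi35 with Rpl27, Vat1 and Rnd2. Dhx58 shares peaks with Zfp385c, Kat2a and Hspb9, and some of its 11 peaks lie inside Kat2a or Hspb9. The strongest Ifi35 peak, at 83.3 CPM in SCF controls, lies 6.11 kb before its TSS, and the strongest Bst2 peak, at 59.2 CPM, lies 5.39 kb before its TSS. The whole loci had means of 116 and 108 CPM in these lines. The high rank of Ifi35 and Bst2 per peak thus rests largely on 1 peak each, away from their own TSS. A peak adjacent to it lies in an intron of Rpl27 for Ifi35 and of Mvb12a for Bst2.

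The comparison of SCF clones asked how loss of Tet2, an enzyme that oxidises 5-methylcytosine, changed accessibility within a clone. No member passed the test. Of the 39 members, 22 passed the filter on low counts; 0 of these reached an adjusted p under 0.05 by the edgeR quasi-likelihood test with the clone as a block, and 0 did by DESeq2. At an unadjusted p under 0.05 there were 5 of 22 by either tool. Over all 10408 loci tested, 4.79% were called higher and 1.45% lower, and 20% had an unadjusted p under 0.05 (22.7% of the members). The fitted value was below 0 in 18 of 22 members against 53.4% of all loci, with a median of -0.08 on the log2 scale against -0.01 for all loci.

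The 5 members of smallest p all had lower values in KO lines, and none passed. Dhx58 is the RNA helicase Lgp2 that regulates viral RNA sensing, and its locus shares peaks with Kat2a, Hspb9 and Zfp385c. The locus had 35.3, 58.0 and 117 CPM as lowest, median and highest in SCF controls. Its KO lines had 17.0, 54.5 and 79.1 CPM. The groups overlapped widely; KO was lower in 14 of 24 pairs, with a log2 fold change of -0.26 ± 0.09 (SE) and an edgeR adjusted p of 0.0702. Ifit2, which binds RNA through tetratricopeptide repeats, had 12.8, 26.1 and 64.4 CPM in controls and 8.33, 22.1 and 47.6 CPM in KO lines. It was lower in 15 of 24 pairs, with a log2 fold change of -0.38 ± 0.14 and an edgeR adjusted p of 0.0906. Zbp1, a sensor of Z-form nucleic acid that can start cell death, had a median of 28.8 CPM in controls and 22.3 CPM in KO lines, and was lower in 17 of 24 pairs (log2 fold change -0.37 ± 0.15, edgeR adjusted p = 0.126). Oasl1, an oligoadenylate synthetase-like protein, had medians of 37.4 and 27.3 CPM and was lower in 19 of 24 pairs (log2 fold change -0.28 ± 0.12, edgeR adjusted p = 0.162). B2m, the light chain of MHC class I, had medians of 73.9 and 66.7 CPM and was lower in 17 of 24 pairs (log2 fold change -0.19 ± 0.08, edgeR adjusted p = 0.166).

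**Figure D2:**
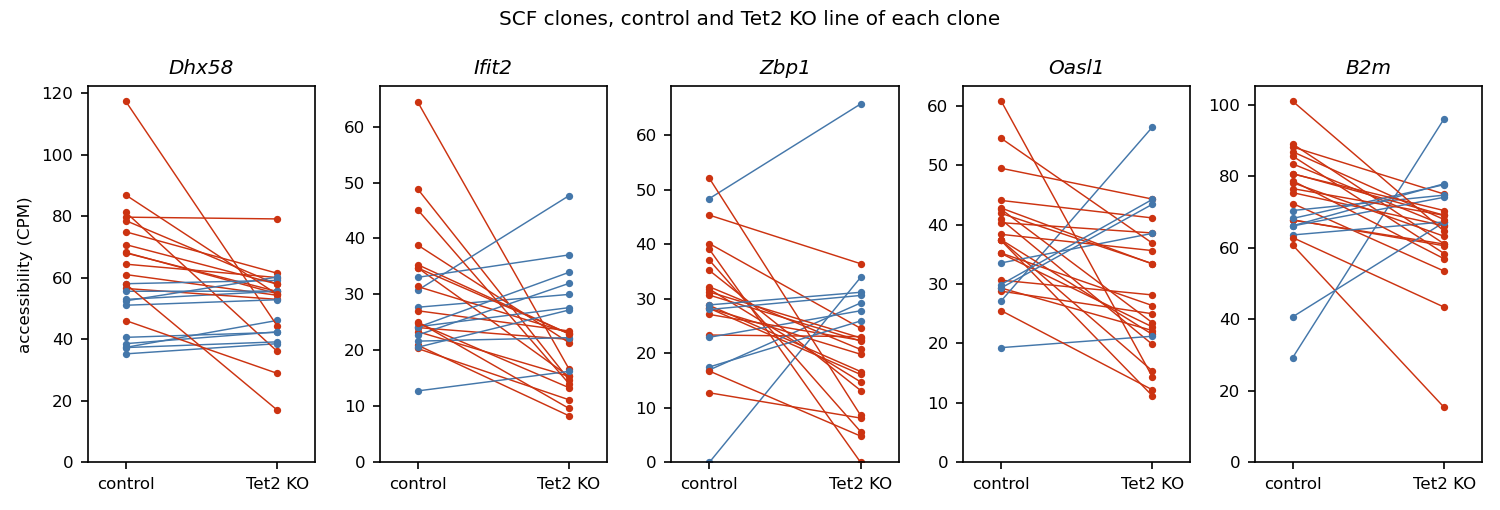
Accessibility (CPM) of the 5 members of smallest p in the genotype comparison, with 1 line per SCF clone joining its control and Tet2 KO library, red where KO was lower. Lines run both ways at every locus, and KO was lower in 14 of 24 pairs at Dhx58 and 19 of 24 at Oasl1.

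Of the remaining members tested here, Ifih1, the viral RNA sensor Mda5, had a log2 fold change of -0.24 ± 0.14 and Trim21, a ubiquitin ligase that binds antibody inside the cell, -0.21 ± 0.14. Isg15, a ubiquitin-like modifier, had the highest fitted value of the 22, 0.11 ± 0.09, and Bst2 had -0.00 ± 0.07. The 17 members that did not pass the filter had SCF control means from 3.18 to 25.6 CPM. Among them, Samd9l, an interferon-induced restriction factor, had medians of 12.3 CPM in controls and 7.98 CPM in KO lines and was lower in 18 of 24 pairs. Adar, which edits adenosine in double-stranded RNA, had medians of 9.56 and 5.58 CPM and was also lower in 18 of 24 pairs. Fitted without the count filter, Samd9l was at -0.64 ± 0.24 (edgeR adjusted p = 0.14) and Adar at -0.71 ± 0.27 (edgeR adjusted p = 0.149). Both loci were chosen for mention after their values were seen. Among single peaks, 12 of 263 passed the filter and 0 were called at an adjusted p of 0.01 or less, beside 2.21% higher and 0.28% lower of 7871 peaks; 2 had an unadjusted p under 0.05, and DESeq2 called 0. The peak over the B2m TSS (chr2:122147537-122147837), which contains the B2m match shown above, had 19.6, 43.8 and 70.6 CPM in controls and 0, 36.6 and 55.7 CPM in KO lines. Its log2 fold change was -0.39 ± 0.11 with an edgeR adjusted p of 0.0124, past 0.05 but not past 0.01.

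Other genes of the pathway moved in both directions in SCF clones, beside 4.79% of all loci called higher and 1.45% lower. Of 17 receptor and signalling genes, 16 were tested; Ifngr1, a chain of the interferon gamma receptor, rose by 0.21 ± 0.07 on the log2 scale (edgeR adjusted p = 0.033) and Ptpn2, a phosphatase that acts on Jak kinases, by 0.23 ± 0.08 (edgeR adjusted p = 0.0366). Of 15 antigen presentation genes and immunity GTPases, 11 were tested and Psmb8, an immunoproteasome subunit whose locus shares peaks with Tap1, fell by 0.27 on the log2 scale (SE 0.09, edgeR adjusted p = 0.0391). Ifi27 rose by 0.27 ± 0.08 (edgeR adjusted p = 0.0204), 1 of 6 tested among the other interferon-induced genes. None of 9 tested nucleic acid sensing genes and none of 6 tested interferon regulatory factors were called by edgeR; the smallest adjusted p among them was 0.0923, for Ticam1.

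The comparison of GM-CSF with SCF control lines showed 4 members past the test, 3 higher and 1 lower in GM-CSF. Of 28 members tested, 14 had positive and 14 negative fitted values, with a median of -0.03 against -0.00 for all loci. Over all 12896 loci tested, 5.78% were called higher and 6.63% lower. Eif2ak2, the kinase PKR that halts translation on binding double-stranded RNA, was the clearest. Its locus had 52.2, 56.7, 58.9 and 58.7 CPM in the GM-CSF controls of clones 19 to 22, from 6, 5, 32 and 45 counts. The 24 SCF controls had 9.35 CPM as lowest, 22.6 as median and 52.1 as highest, so every GM-CSF control stood above every SCF control, though the margin between clone 19 and the highest SCF line was small. Such a separation, above, was seen at 0.651% of the loci tested. The log2 fold change was 1.24 ± 0.22 with an edgeR adjusted p of 6.04e-06. It was 1.43 ± 0.23 against SCF clones 1 to 18 alone and 0.86 ± 0.23 against SCF clones 23 to 29 alone, and called in both (edgeR adjusted p = 4.33e-07 and 0.00777).

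The KO lines gave the same direction at Eif2ak2. The GM-CSF KO lines of clones 19 to 22 had 24.5, 76.2, 66.1 and 63.9 CPM, from 1, 3, 31 and 28 counts. SCF KO lines ran from 0 to 44.7 CPM with a median of 22.1, so clone 19 lay within the SCF range and the other 3 above it. The log2 fold change was 1.54 ± 0.26 (edgeR adjusted p = 1.55e-06), and Eif2ak2 was the 1 member called of 23 tested, beside 4.34% of 11694 loci called higher and 5.51% lower. The comparisons use different lines of the same clones.

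Within the Eif2ak2 locus, the peak over the TSS (chr17:78882462-78882762) and a peak 8.68 kb before it stood higher in GM-CSF than in SCF controls on average. The TSS peak had 34.8, 22.7, 46.0 and 33.9 CPM in GM-CSF controls, against 6.79, 17.4 and 38.8 CPM as lowest, median and highest in SCF controls. It was the 1 member peak called of 21 tested (log2 fold change 1.16 ± 0.26, edgeR adjusted p = 0.000228), beside 4.88% of 13171 peaks called higher and 9.84% lower. That call depended on the filter and on 1 clone: without the count filter the value was 0.88 ± 0.38 (edgeR adjusted p = 0.407), and no member peak was called without clone 21. An ISRE match begins 19 bases after the TSS, on the strand of the gene at chr17:78882535-78882564, and is shown because it lies inside this peak.
Eif2ak2: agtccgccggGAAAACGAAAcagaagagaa
The peak 8.68 kb before the TSS, in an exon of the noncoding gene Gm26637 and an intron of Sult6b1, had 8.70, 34.0, 7.36 and 15.6 CPM in GM-CSF controls and a median of 2.27 CPM in SCF controls. It did not pass the count filter. Without the filter, where the scaling lowered the log2 fold changes of the shared peaks by a median of -0.25, its log2 fold change was 2.05 ± 0.53 (edgeR adjusted p = 0.0141, short of 0.01).

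**Figure D3:**
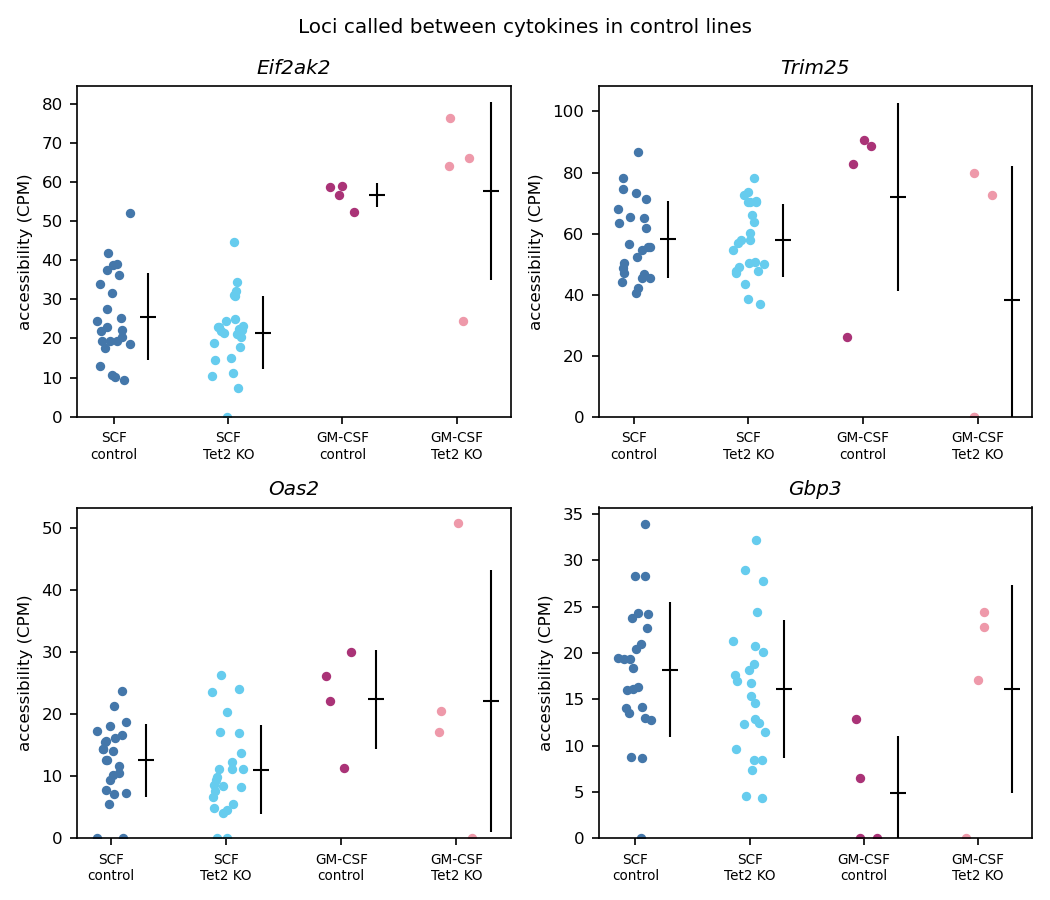
Accessibility (CPM) of Eif2ak2, Trim25, Oas2 and Gbp3 in every library by group (points), with the group mean and SD (bars, ended at 0); n is 24 in each SCF group and 4 in each GM-CSF group. The GM-CSF controls of Eif2ak2 lie above all SCF controls, while the other 3 loci overlap.

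At the other 3 called members the GM-CSF and SCF controls overlapped. Trim25, a ubiquitin ligase that activates the sensor Ddx58, had 26.1, 90.7, 82.8 and 88.7 CPM in the GM-CSF controls of clones 19 to 22, from 3, 8, 45 and 68 counts, against 40.6, 55.6 and 86.8 CPM in SCF controls. Clone 19 was below every SCF control and 2 of the other 3 above all. The log2 fold change was 0.51 ± 0.16 (edgeR adjusted p = 0.019), and the call was lost without clone 21 (0.49, adjusted p = 0.117) or clone 22 (0.40, adjusted p = 0.347), with DESeq2 (adjusted p = 0.0647) and against SCF clones 23 to 29 alone (edgeR adjusted p = 0.14). In KO lines the value was 0.29 ± 0.20 (edgeR adjusted p = 0.413). An intronic Trim25 peak 7.22 kb after the TSS (chr11:89006448-89006748) had 0, 45.3, 14.7 and 20.9 CPM in GM-CSF controls against a median of 1.62 and a highest value of 10.5 CPM in SCF controls, where 11 of 24 libraries had no count. It was below the count filter, and without the filter its log2 fold change was 2.84 ± 0.50 (edgeR adjusted p = 1.61e-05). Its central 120 bases, chr11:89006538-89006657 on the plus strand, are shown because this peak had the smallest p of the 263 member peaks without the filter; they contain no ISRE or gamma-activated site match, so no letters are capitalised. Outside these bases the peak holds 1 match to the core GAGGAAGT, bound by the factor PU.1 and searched on both strands, which 4.94% of member peaks and 6.79% of all peaks hold.
Trim25: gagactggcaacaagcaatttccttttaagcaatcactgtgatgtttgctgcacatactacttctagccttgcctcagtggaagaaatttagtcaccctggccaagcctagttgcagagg

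Oas2, which makes the 2'-5' oligoadenylates that activate RNase L, had 26.1, 11.3, 22.1 and 30.0 CPM in GM-CSF controls, from 3, 1, 12 and 23 counts, and 0, 13.4 and 23.7 CPM in SCF controls. Of the 4 values, 2 lay within the SCF range and 2 above it, and the log2 fold change was 0.97 ± 0.34 (edgeR adjusted p = 0.0378). Oas2 passed the count filter through the group where it is high: 3 GM-CSF controls and 2 of 24 SCF controls reached the minimum, where 4 libraries were needed. Without the filter its value was 0.97 ± 0.33 (edgeR adjusted p = 0.043). The call was lost without clone 19 (adjusted p = 0.0611), clone 21 (0.0918) or clone 22 (0.74 on the log2 scale, 0.435), with DESeq2 (0.0545) and against SCF clones 23 to 29 alone (0.137). Its TSS peak (chr5:120749750-120750050), which holds the match shown above, had 8.70, 0, 12.9 and 13.0 CPM in GM-CSF controls and a median of 1.36 CPM in SCF controls; unfiltered, the log2 fold change was 2.10 ± 0.54 (edgeR adjusted p = 0.0147). Gbp3, a guanylate binding protein, had 0, 0, 12.9 and 6.52 CPM in GM-CSF controls, from 0, 0, 7 and 5 counts, against 0, 18.8 and 33.9 CPM in SCF controls. Its log2 fold change was -1.20 ± 0.43 (edgeR adjusted p = 0.0458), and the call was lost without clone 19 (adjusted p = 0.0897), clone 20 (0.0774) or clone 22 (0.348), with DESeq2 (0.0841) and without the count filter (0.0514). Gbp3 passed the filter through 9 SCF controls and 0 GM-CSF controls.

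**Figure D4:**
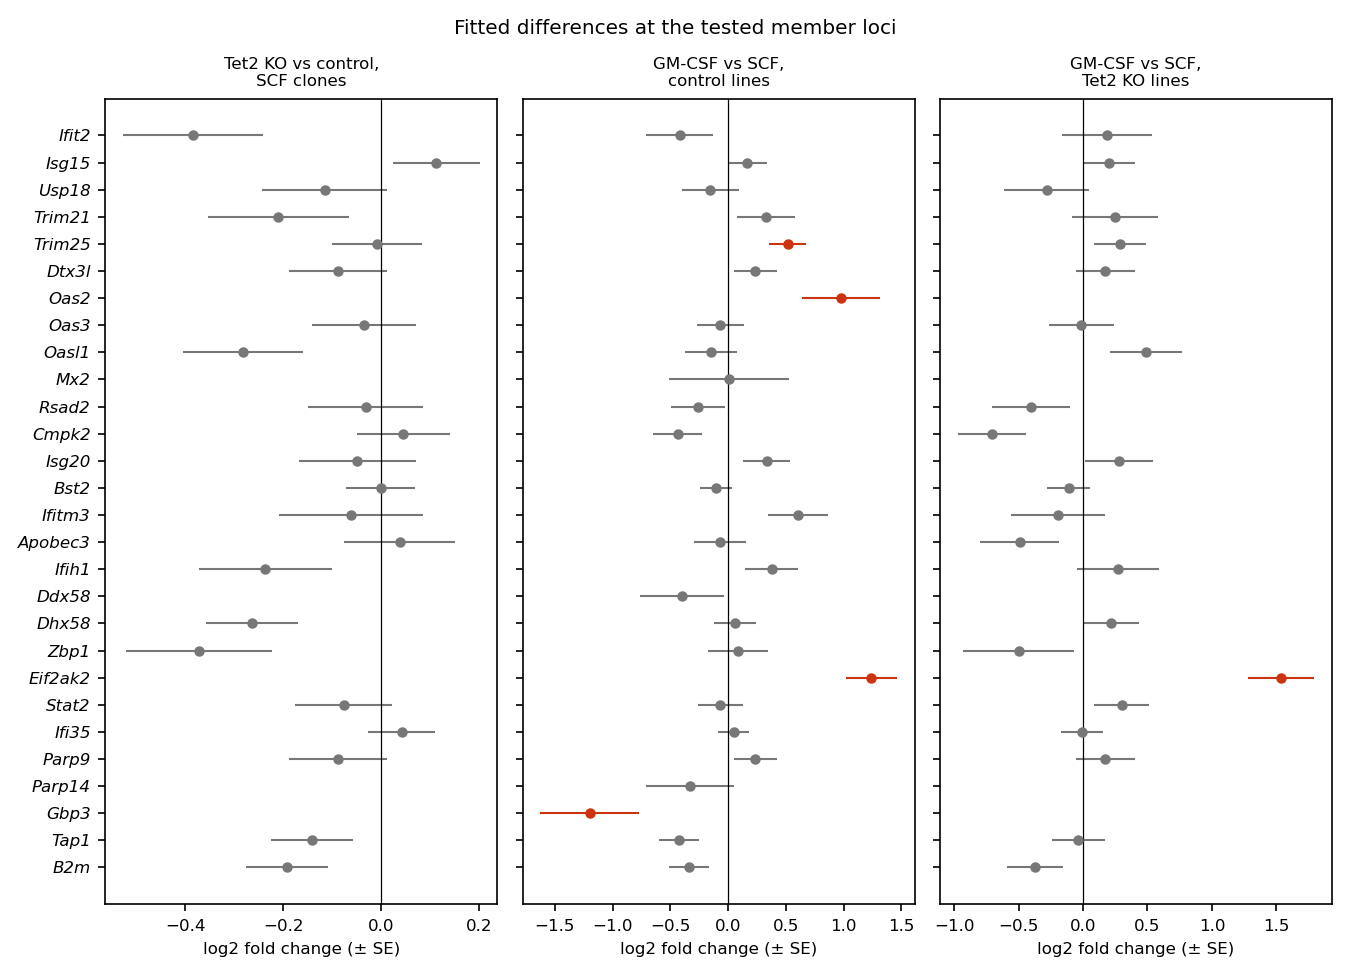
Log2 fold change with SE at member loci tested in the Tet2 comparison (left) and in the cytokine comparison of control (middle) and KO lines (right), red where the edgeR adjusted p was under 0.05; gaps mark loci not tested and axes differ in range. No locus is red on the left, 4 are in the middle and Eif2ak2 alone on the right.

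Of the other members, those of smallest p did not pass. Cmpk2 had 26.1, 11.3, 27.6 and 53.5 CPM in GM-CSF controls against a median of 51.7 CPM in SCF controls (log2 fold change -0.44 ± 0.21, edgeR adjusted p = 0.171), and -0.71 ± 0.26 in KO lines (adjusted p = 0.0677). In KO lines Oasl1 was at 0.49 ± 0.28, B2m at -0.37 ± 0.22 and Apobec3 at -0.49 ± 0.31, with edgeR adjusted p of 0.292, 0.303 and 0.347. Tap1 was at -0.43 ± 0.17 in control lines (edgeR adjusted p = 0.0861) and Ifitm3, which blocks virus entry, at 0.61 ± 0.26 (adjusted p = 0.11).

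Some upstream components of the pathway were called between cytokines, beside 5.78% of all loci called higher and 6.63% lower in control lines. In KO lines those shares were 4.34% and 5.51%. In control lines 2 of 17 receptor and signalling genes were called higher and 1 lower, and 2 of 9 sensing genes higher. In KO lines it was 2 of 16 higher and 1 lower, and 1 of 9 higher. Whether these lists differ from all loci was not tested. Socs1, which inhibits Jak kinases, rose by 0.70 ± 0.14 in control lines and by 0.62 ± 0.16 in KO lines, and Ptpn6, a phosphatase, by 0.57 ± 0.11 and 0.72 ± 0.12. Socs3 fell by 0.69 in KO lines (SE 0.16). Of the sensing genes, Ikbke, a kinase that activates Irf3, rose by 1.16 ± 0.20 in control lines and 1.40 ± 0.26 in KO lines, and Ticam1 by 0.43 ± 0.15 in control lines. The 1 interferon ligand tested in control lines, Ifnk, rose by 1.75 ± 0.31. None of the 7 listed ligands passed the count filter in KO lines or in fits of SCF clones alone. A ligand was thus tested only in fits that held the GM-CSF control lines, the group where Ifnk was higher. Tap2 (1 called of 12 tested in its list) and Ifitm2 (1 of 13) fell by 0.51 and 0.67 on the log2 scale. None of the interferon regulatory factors were called by edgeR (7 tested in control lines and 6 in KO lines).

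Loss of Tet2 in the GM-CSF clones could be tested in 28 members, and 0 were called by edgeR or DESeq2, as was the case for 0% of all 13112 loci. At an unadjusted p under 0.05 there were 3, against 5.4% of all loci. Zbp1 had 26.1, 45.3, 27.6 and 32.6 CPM in GM-CSF controls and 0, 0, 17.1 and 16.0 CPM in KO lines of clones 19 to 22, so the groups did not overlap. KO lines stood below every control line at 1.57% of all loci tested, and also at the untested member Adar. The zeros are in the shallow clones, and the log2 fold change was -0.996 ± 0.45 (edgeR adjusted p = 0.867). Gbp3 was at 1.23 ± 0.57 and Ifitm3 at -0.85 ± 0.40, with edgeR adjusted p of 0.881 and 0.886. Oasl1 was at 0.39 ± 0.32 and Stat2 at 0.32 ± 0.27 (edgeR adjusted p = 0.963 for both). The difference of the KO effect between GM-CSF and SCF clones was called at 0 of 28 members, with 1 at an unadjusted p under 0.05, Gbp3 (1.36 ± 0.60, edgeR adjusted p = 0.998). Oasl1 (0.66 ± 0.35), Ifitm3 (-0.80 ± 0.43), Tap1 (0.42 ± 0.27) and Parp14, an ADP-ribosyltransferase (0.84 ± 0.58), had the same adjusted p.

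Among SCF clones, Apobec3 was the 1 member of 22 whose accessibility differed between clones (edgeR adjusted p = 0.00192), beside 1.7% of 10408 loci. Cmpk2, Zbp1, Dhx58 and Ifit2 had the next smallest p and did not pass (edgeR adjusted p = 0.322, 0.39, 0.396 and 0.622). Apobec3 edits retroviral DNA. Its locus was higher in clones 23 to 29 than in clones 1 to 18, at 49.5 ± 12.4 CPM (SD, n = 7) against 32.7 ± 9.53 CPM (n = 17) in control lines. The log2 fold change was 0.66 ± 0.15 (edgeR adjusted p = 0.0321), the 1 member of 26 called, beside 0.0336% of 11911 loci called higher and 0.101% lower. The KO lines of these clones gave 0.74 ± 0.17 (edgeR adjusted p = 0.0307), and in control lines the call was lost with DESeq2 (adjusted p = 0.113), without the count filter (edgeR adjusted p = 0.0516) and with a 50 kb window (0.711). With a 1 kb window the locus was not tested. Between the clone sets, Eif2ak2 was at 0.57 ± 0.21 (edgeR adjusted p = 0.6), Cmpk2 at -0.25 ± 0.15 (0.857), Oas3 at 0.21 ± 0.15 (0.927) and B2m at 0.16 ± 0.12 (0.927), and none passed. KO lines of the same clones had 53.2 ± 19.4 and 32.0 ± 13.9 CPM. Within either set of clones the differences between clones did not pass (edgeR adjusted p = 0.766 in clones 1 to 18 and 0.806 in clones 23 to 29). The clone numbers are the labels' own and the labels name no batch for them. These sets were compared as possible batches because they had been seen to differ in the X chromosome share of counts, a measured value that is not given here. The paper's Results name a Tet2 fl/fl mouse as the source of the clones, and its reporting summary lists immortalised lines of both sexes. Whether the sets differ in donor or sex was not tested. The peak 0.7 kb after the TSS had 23.5 ± 9.27 CPM over both lines of clones 23 to 29 and 13.2 ± 8.02 CPM in clones 1 to 18. Each SD is over libraries, so the paired lines of a clone are counted separately and are not independent replicates. The peak was not tested between the clone sets. This peak holds an ISRE match 609 bases after the TSS, at chr15:79892258-79892287 on the strand of the gene, shown because it lies in the peak.
Apobec3: catcagttagTTTCCCTTTCtctttgcgat

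**Figure D5:**
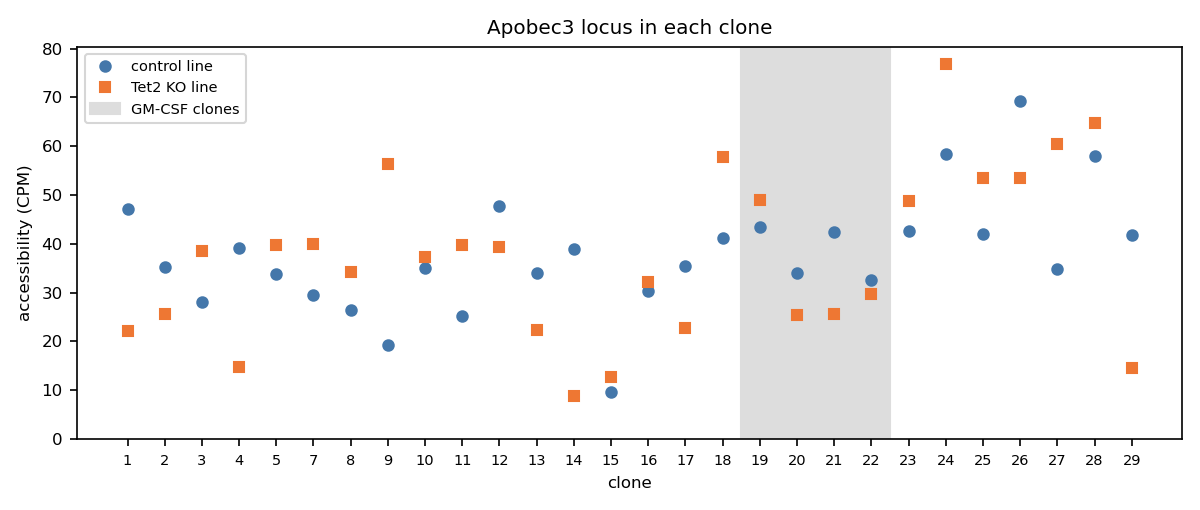
Accessibility (CPM) of the Apobec3 locus in the control line (circle) and Tet2 KO line (square) of each clone, with GM-CSF clones shaded. Control lines of clones 23 to 29 lie between 34.8 and 69.3 CPM, and those of clones 1 to 18 between 9.65 and 47.7 CPM.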

How the data were processed

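Bulk ATAC-seq of 56 libraries (28 clone pairs) was analysed from the raw counts per peak that the authors deposited, without normalization. The labels name the mm10 build and the tools Bowtie2, SAMtools and Picard; their versions, any duplicate removal and whether insertions or fragments were counted: not given in the sources used here. Peaks are 297361 regions of 301 bp. Loci were summed with GENCODE vM21 (GRCm38). Members, gene lists and tests were chosen with earlier results of these data known. Mx2, annotated as a polymorphic pseudogene, was kept.

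Tests on counts used edgeR 4.0.16 (quasi-likelihood, R 4.3.3), TMM scaling, filterByExpr with a minimum count of 10 and Benjamini-Hochberg adjustment over all loci or peaks, at 0.05 for loci and 0.01 for peaks; DESeq2 1.42.0 was an alternative. Genotype fits held the clone as a block, since both lines of a clone come from 1 cell; log2 CPM deviations of paired lines correlated over 0.1 in 5 of 24 pairs (median 0.06). The GM-CSF genotype effect came from 1 fit of all libraries. CPM are counts over the library total. The members named are those that passed in any comparison and the 5 of smallest p in each; of peaks and pathway genes, the planned further ones of smallest p were mostly left out. The fits were also run on simulated data with known changes, and the outcome is not reported here. PCR reads carry no molecular identifiers, so errors cover counting as deposited. A gene of the pathway lists is not reported here.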

Additional observations from a re-analysis of the deposited data

Results flagged for a closer look

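In 5 of 78 groups of 4 GM-CSF lines, 1 line stood far from the other 3 at a member locus. The rule would flag about 1 in 20 groups of 4 normal values of equal spread. These lines differ in depth and hold zeros, so that rate cannot be taken to hold here. In the KO lines, Ifit2 had 73.4 CPM in clone 19 against 22.8 to 25.4 CPM, Oas3 had 0 CPM in clone 20 against 42.7 to 48.9 CPM, and Xaf1 had 6.40 CPM in clone 21 against 0 in the others. In the control lines, Trim25 had 26.1 CPM in clone 19 against 82.8 to 90.7 CPM, and Ifi44 had 8.70 CPM in clone 19, from 1 count, against 0 in clones 20 and 21 and 1 count in the deeper clone 22. The lines of clones 19 and 20 are among the shallowest of the series, with 39379 to 114885 counts.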

How the results depend on the processing

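Dropping each GM-CSF clone in turn gave 2 to 3 called members in control lines (4 in full) and 0 to 1 called peaks (0 without clone 21). These were not always members called in full. Without clone 22 only Eif2ak2 of those 4 stayed called, so the count there holds a member not called in full. Eif2ak2 stayed called in all 15 alternatives of each cytokine comparison (log2 fold change 0.51 to 1.43 in control lines and 0.55 to 1.77 in KO lines). In control lines the count was 1 with DESeq2, 2 against SCF clones 1 to 18 alone, 1 against clones 23 to 29 alone, 1 with a 1 kb window, 8 with a 50 kb window and 2 without the shallow clones 19 and 20, an alternative chosen after seeing the data. In KO lines it was 3 against clones 23 to 29 alone, 2 with each peak given to its nearest TSS and 4 with a 50 kb window. The members tested and the share of all loci called in each alternative are not given here. A higher or lower count is thus not a result about the members. Upper-quartile scaling called 1 member with Tet2 loss in SCF clones (Dhx58, -0.30, edgeR adjusted p = 0.0348), and a threshold of 0.05 called 1 peak. For differences among SCF clones the count was 0 in clones 1 to 18, 0 in clones 23 to 29 and 0 with a 1 kb window; between the clone sets it was 0 with DESeq2, 0 with no count filter and 0 with 1 kb or 50 kb windows. The sign turned at Apobec3 in KO lines with a 50 kb window (0.031), at Tap1 for the difference of the KO effect with a 50 kb window (-0.033), and in KO lines of the clone sets at B2m (-0.032) and Cmpk2 (0.21). Without the replicate block the count of called members stayed at 0 for Tet2 loss in SCF clones, in GM-CSF clones, for their difference and for peaks; clones were paired by origin. Without the count filter the count of called peaks stayed at 1 in the cytokine comparison, but the peak was another: the Eif2ak2 TSS peak was no longer called and the Trim25 peak 7.22 kb after its TSS was. Trim25, Oas2 and Gbp3 were not called with DESeq2 (adjusted p = 0.0647, 0.0545 and 0.0841), and Trim25 and Oas2 not against clones 23 to 29 alone (edgeR adjusted p = 0.14 and 0.137). The genotype peak fit with no count filter was not run. The causes were not tested. Depth limits the GM-CSF clones 19 and 20 most, where many members had 0 to 8 counts.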

Other observations

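Summed over the 263 distinct peaks of the member loci, accessibility had a median of 1237 CPM in SCF controls (1086 to 1330, n = 24) and 1156 CPM in SCF KO lines (979 to 1329, n = 24). It was 1286 CPM in GM-CSF controls (1145 to 1299, n = 4) and 1107 CPM in GM-CSF KO lines (979 to 1256, n = 4), so all groups overlapped. These sums were not tested.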
